A study of Caenorhabditis elegans with 12 samples.

Results

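The 55 genes described here encode transcription factors of 14 families in the nematode Caenorhabditis elegans, among them homeobox, basic helix-loop-helix (bHLH), zinc finger, basic leucine zipper (bZIP), T-box, GATA, SOX and forkhead factors. They were taken by name from 2 tables of genes near regions of acetylated histone H4, using the name stems ceh, hlh, ztf, zip, zfp, tbx, sox, fkh, ets, elt, lim, atf, dmd, egrh and klf followed by a number. No lim gene was the named gene of a region. Of the 7553 genes in either table, 55 matched. These were 44 of the 5632 genes listed for H4K5ac, 46 of the 5671 listed for H4K8ac and 35 of the 3750 genes in both tables. A further 9 were listed for H4K5ac alone and 11 for H4K8ac alone.

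Acetylation of lysine 5 (H4K5ac) and lysine 8 (H4K8ac) of histone H4 was mapped by ChIP-seq with an antibody to each mark, in adult worms of the wild-type Bristol N2 strain fed on E. coli OP50 and grown at 20 °C. Each mark had 3 libraries of precipitated chromatin (IP) and 3 of the input chromatin, all sheared to 0.2 to 1 kb. Every library came from the same wild-type strain, so the comparisons are between IP and input and between the marks, and no mutation or treatment was tested. The labels do not say whether the replicates were separate cultures, so p-values cover no more than the spread among these libraries, and that spread may be technical.

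Homeobox, bHLH, T-box, GATA and SOX proteins bind DNA through conserved domains and are best known in the worm as regulators of cell fate, many of them acting in small sets of neurons, muscle or epidermal cells. The zinc finger and leucine zipper families are more varied and include broadly used regulators of stress responses and metabolism. Acetylated histone H4 is typical of the chromatin around active genes. Whole-worm chromatin mixes all tissues, so fewer cells carrying a mark and less of the mark per cell cannot be told apart.

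Total counts ranged between 5460429 and 9156392 per library for H4K5ac and between 6418842 and 9136344 for H4K8ac, and no gene fell to the filter on low counts, so all 44 and 46 transcription factor genes were tested. Levels are counts scaled to library size (CPM), and folds are IP over input with their standard errors (SE). Both tables hold genes chosen for enrichment, so a log2 fold of 0 is the level of the typical listed gene and a negative fold is not an absence of the mark. The first H4K5ac IP stood apart from the other H4K5ac IPs (chi-square per degree of freedom 13.8 and 22.9, against 4.49 between the others), as did the second H4K8ac IP (14.02 and 5.76, against 3.80). Across listed genes, the input count was lower where more annotated genes met the stretch of 2 kb on each side of the start site (Spearman -0.50 for H4K5ac and -0.50 for H4K8ac). The input count also rose with gene length (Spearman 0.29 for H4K5ac and 0.28 for H4K8ac). Whether close neighbours alter a count was not tested, and the level of a transcription factor gene with close neighbours is taken as uncertain. Of these genes, 21 of 44 and 21 of 46 had no protein-coding neighbour in the stretch of 2 kb on each side.

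For H4K5ac, 18 of the 44 transcription factor genes were higher in IP than in input relative to the typical listed gene, 9 were lower and 17 passed in neither direction (edgeR quasi-likelihood test, adjusted p under 0.05 over all genes of the table). Among all genes of that table, 61.6% were called, 32.2% higher and 29.5% lower, against 40.9% higher and 20.5% lower among the transcription factor genes. The share called, 61.4%, was thus near the background. The median log2 fold was 0.10 over the 44 genes and -0.02 over all genes of the table. In 19 of the 44 genes all IPs lay above all inputs (background 35.2%), in 12 all lay below (background 33.1%), and in 13 they overlapped. Scaling by total counts gave 13 higher and 18 lower, with a median of all genes of -0.15 and a background of 24% higher and 46.6% lower. Scaling to the least enriched 0.25 of the genes gave 28 higher and 0 lower, with a median of 0.28 and a background of 58% and 0%. The main test did not pair libraries by replicate number. With that number as a block, 19 were higher and 11 lower (background 33.5% and 32.8%). The fit of all 12 libraries gave 14 higher and 13 lower among the 35 genes in both tables (background 33.8% and 34.3%). Without the first IP the split was 18 higher and 12 lower (background 32.8% and 31%). That IP was the highest of the 3 in 12 of the 18 higher genes and the lowest in 9 of the 9 lower genes.

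**Figure D1:**
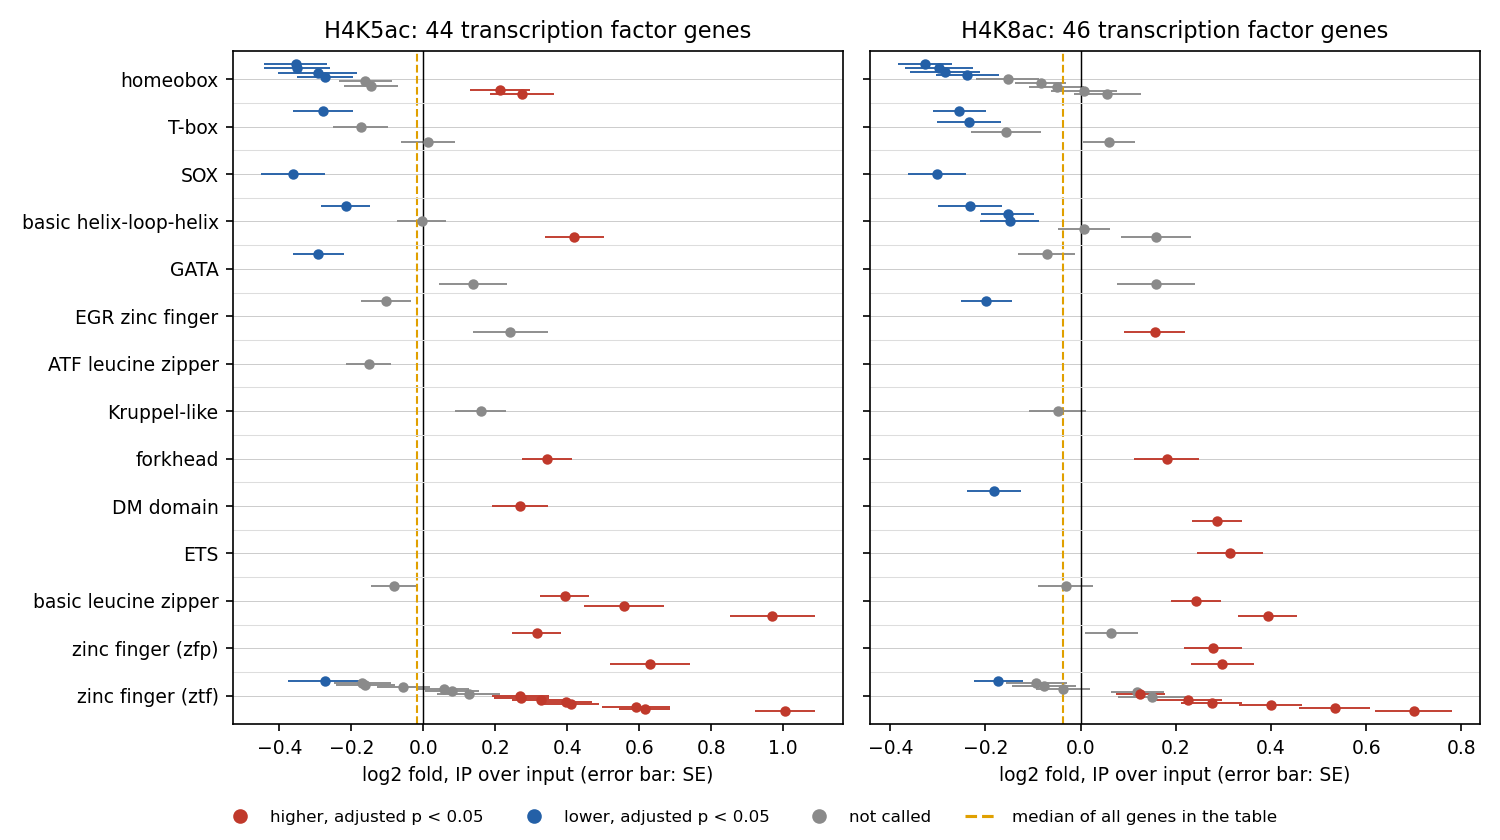
Log2 fold of IP over input for each transcription factor gene (points), grouped by family, for H4K5ac and H4K8ac; the bars are standard errors. Zinc finger genes of the ztf and zfp names reach 1.00 for H4K5ac and 0.70 for H4K8ac, and homeobox genes lie mostly below 0, on a scale where scaling to the least enriched 0.25 of the genes moves the homeobox medians above 0.

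Zinc finger genes included the highest folds. Of 17 genes named ztf or zfp, 10 were higher and 1 was lower for H4K5ac (background 32.2% and 29.5%), with a median log2 fold of 0.27. The count of higher genes was 9 or 10 without any single library, and the median stayed above 0 under total count scaling (0.14). ztf-8, which acts in the DNA damage response and meiotic recombination in the germline, had 326, 316 and 271 CPM in the IPs, against 152, 147 and 156 CPM in the inputs, a log2 fold of 1.00 ± 0.08 (SE, edgeR adjusted p = 8.00e-06). All its IPs lay above all its inputs. Its region (chromosome III, 5266401 to 5280999, WBcel235) covers its promoter. The genes daf-41 and toc-1 reach within 2 kb of its start site, and their signal was not separated from its own.

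zfp-3, which has no annotated neighbour within 2 kb, had 371, 320.1 and 269.9 CPM in the IPs, against 215, 198 and 208 CPM in the inputs, a log2 fold of 0.63 ± 0.11 (SE, edgeR adjusted p = 0.000603). ztf-9 had 252, 238 and 221 CPM in the IPs, against 160.1, 154 and 150.3 CPM in the inputs, a log2 fold of 0.62 ± 0.07 (SE, edgeR adjusted p = 3.28e-05). In both genes the IPs lay above the inputs, and the first IP was the highest of the 3. ztf-18, under a region of 40.2 kb, the longest of the H4K5ac regions of these genes (chromosome III, 875001 to 915199), had 323, 342 and 305 CPM in the IPs, against 239.5, 205 and 199.6 CPM in the inputs, a log2 fold of 0.59 ± 0.10 (SE, edgeR adjusted p = 0.000331). Its input values overlapped with no IP value. ztf-17 (0.41 ± 0.08), ztf-13 (0.40 ± 0.07), ztf-1 (0.33 ± 0.08) and zfp-2 (0.32 ± 0.07) were higher as well, as were ztf-4 and ztf-29. The ztf-4 call was lost without the second input (edgeR adjusted p = 0.0541) and the ztf-29 call without the third (0.0647). The transcript named ztf-4 carries the RefSeq symbol hrpc-1 and is counted among the zinc finger genes by its listed name only. The exception in the family was ztf-30, with 155, 200.1 and 214 CPM in the IPs, against 222, 224 and 243 CPM in the inputs, a log2 fold of -0.27 ± 0.10 (SE, edgeR adjusted p = 0.0377). Its first IP was the lowest by a wide margin, and its call was lost without any 1 of 5 libraries: the first IP, the second IP or an input (edgeR adjusted p up to 0.121, fold without the first IP -0.15).

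Of the 4 leucine zipper genes named zip that were measured, 3 were higher for H4K5ac and none was lower (background 32.2% and 29.5%). Their median log2 fold was 0.48, and the count of 3 was unchanged without any single library. zip-4 had 501, 438 and 376 CPM in the IPs, against 235, 214 and 222 CPM in the inputs, a log2 fold of 0.97 ± 0.12 (SE, edgeR adjusted p = 4.86e-05). All IPs lay above all inputs, the first IP the highest and the third IP the lowest. The genes nol-58, which encodes a nucleolar protein, and tyr-5 reach within 2 kb of its start site. zip-11 had 374, 296 and 281 CPM in the IPs, against 229, 214 and 203 CPM in the inputs, a log2 fold of 0.56 ± 0.11 (SE, edgeR adjusted p = 0.0014), with no annotated neighbour in the stretch but with its region centre 4632 bp from its start site. zip-1, a factor in the response to intracellular pathogens, had a log2 fold of 0.39 ± 0.07 (SE, edgeR adjusted p = 0.000531). zip-3, a repressor in the mitochondrial unfolded protein response, had 192, 201 and 202 CPM in the IPs, against 207, 214 and 208 CPM in the inputs, a log2 fold of -0.08 ± 0.06 (SE, edgeR adjusted p = 0.269), and was not called although all IPs lay below all inputs. atf-6, the endoplasmic reticulum stress factor, had a log2 fold of -0.15 ± 0.06 (SE, edgeR adjusted p = 0.0511), just outside the threshold.

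Of 8 homeobox genes measured for H4K5ac, 4 were lower, 2 were higher and 2 passed in neither direction (background 29.5% lower and 32.2% higher). Their median was -0.22, which turned to 0.08 under scaling to the least enriched 0.25 of the genes. The lower count was 3 to 5 without any single library. The higher count of 2 was 0 without the second IP, the second input or the third input, and 1 without the first IP or the first input. ceh-13, the labial-type Hox gene, had 149.8, 170.3 and 182 CPM in the IPs, against 195, 231 and 216 CPM in the inputs, a log2 fold of -0.36 ± 0.09 (SE, edgeR adjusted p = 0.00453). ceh-74 had 119.8, 148 and 141 CPM in the IPs, against 160.2, 173 and 188 CPM in the inputs, a log2 fold of -0.35 ± 0.09 (SE, edgeR adjusted p = 0.00623). All IPs of both genes lay below all inputs, and the first IP was the lowest. ceh-10, needed for the differentiation of the AIY and CAN neurons, had 143, 186 and 208 CPM in the IPs, against 217, 219 and 221 CPM in the inputs, a log2 fold of -0.29 ± 0.11 (SE, edgeR adjusted p = 0.0347). Its region centre lay 3173 bp from its start site, in an intron of another transcript. Without the first IP its fold was -0.16. Its call was lost without the second IP or without any 1 input (edgeR adjusted p up to 0.0860). ceh-58 was lower (-0.27 ± 0.08), a call lost without the third input (edgeR adjusted p = 0.0610). The higher genes with homeobox names were ceh-21, of the ONECUT class (0.27 ± 0.09), and ceh-44 (0.21 ± 0.08). The ceh-21 call was lost without the second IP or without the second or the third input (edgeR adjusted p up to 0.0797). The ceh-44 call was lost without any 1 of 5 libraries, the exception being the third IP, and its fold without the first IP was 0.12 (edgeR adjusted p = 0.121). The transcript named ceh-44 carries the RefSeq symbol cone-1, and RefSeq lists ceh-44 as a separate gene near its start site. This signal may thus not belong to the homeobox gene, and it is counted here by its listed name.

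Scaling to the least enriched 0.25 of the genes called no gene of the whole table lower (background 0%), so it cannot show a lower gene. The directions of the T-box, bHLH, GATA and SOX genes are relative to the typical listed gene. sox-4, an HMG-box factor, had 139.7, 162 and 169.7 CPM in the IPs, against 181, 216 and 208 CPM in the inputs, a log2 fold of -0.36 ± 0.09 (SE, edgeR adjusted p = 0.0049), the lowest fold of all 44, with all IPs below all inputs. elt-1, the GATA factor of epidermal fate, had 169, 179 and 192 CPM in the IPs, against 231, 212 and 217 CPM in the inputs, a log2 fold of -0.29 ± 0.07 (SE, edgeR adjusted p = 0.00442), with all IPs below all inputs. tbx-8, a T-box factor of body morphogenesis, had a log2 fold of -0.28 ± 0.08 (SE, edgeR adjusted p = 0.0123). tbx-2, a T-box factor of pharyngeal muscle, had a log2 fold of -0.17 ± 0.08 (SE, edgeR adjusted p = 0.064) and was called lower when the replicate number was a block (edgeR adjusted p = 0.0338). With that block ztf-28 was also lower (edgeR adjusted p = 0.0421) and egrh-2 was higher (0.0193). tbx-34, the highest of the T-box genes, passed in neither direction (0.01 ± 0.07). hlh-2, the common dimerisation partner of worm bHLH factors, had a log2 fold of -0.22 ± 0.07 (SE, edgeR adjusted p = 0.0158), a call lost without the third input (edgeR adjusted p = 0.0585). hlh-11, a bHLH factor linked to lipid metabolism, was higher, with 313, 301 and 282 CPM in the IPs, against 216, 231 and 223 CPM in the inputs, a log2 fold of 0.42 ± 0.08 (SE, edgeR adjusted p = 0.00122), all IPs above all inputs. hlh-30, the ortholog of the autophagy and lysosome regulator TFEB, had 209.9, 220.5 and 227 CPM in the IPs, against 227, 214 and 219 CPM in the inputs, a log2 fold of -0.0049 ± 0.07 (SE, edgeR adjusted p = 0.952). Its IPs and inputs overlapped, under regions of 34.2 kb and 4.4 kb. fkh-9, a forkhead factor (0.34 ± 0.07), and dmd-7, of the Doublesex and MAB-3 family (0.27 ± 0.08), were higher. The dmd-7 call was lost without the second IP (edgeR adjusted p = 0.0512). klf-1 (0.16 ± 0.07), elt-6 (0.14 ± 0.09) and egrh-1 (-0.10 ± 0.07) passed in neither direction.

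**Figure D2:**
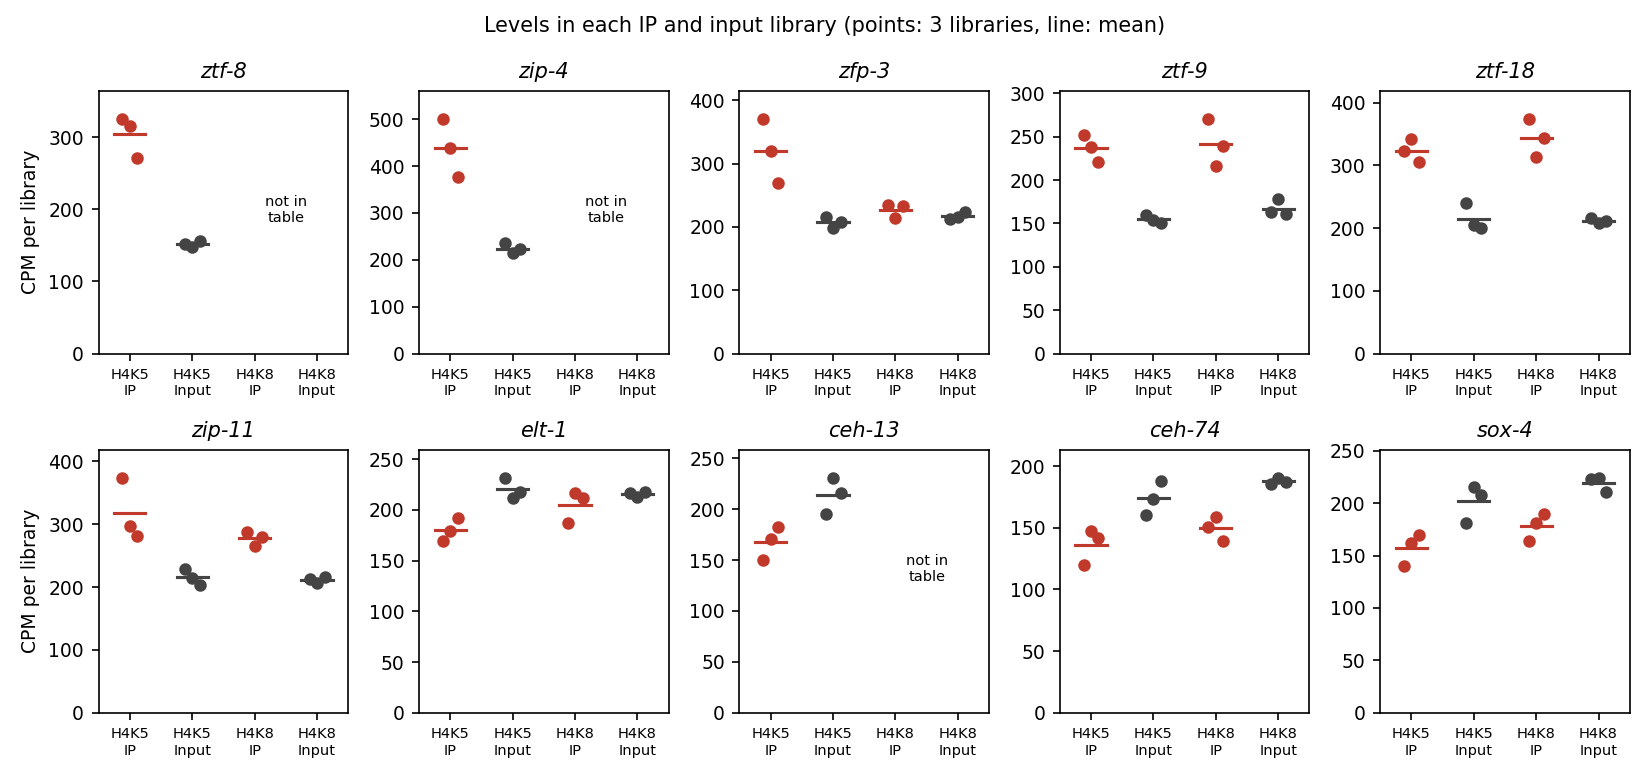
CPM in each IP and input library of 10 transcription factor genes for H4K5ac and H4K8ac (points are libraries, lines are means of 3). In ztf-8, zip-4, zfp-3, ztf-9, ztf-18 and zip-11 the H4K5ac IPs lie above the inputs, and in elt-1, ceh-13, ceh-74 and sox-4 below them.

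For H4K8ac, 14 of the 46 transcription factor genes were higher in IP than in input, 13 were lower and 19 passed in neither direction (edgeR quasi-likelihood test). The background was 64.8% called, with 31.2% higher and 33.6% lower, against 30.4% and 28.3% of the transcription factor genes, so all shares were near the background. The median log2 fold was -0.01, against -0.04 over all genes of the table. All IPs lay above all inputs in 15 genes (background 32.7%) and below them in 12 (background 36.5%). Without the third IP, 10 were higher and 7 lower (background 28.6% and 22.9%), and without the second IP 18 and 14 (background 36.7% and 37.2%). Total count scaling gave 11 higher and 17 lower, with a median of all genes of -0.10 and a background of 25.6% higher and 44% lower. Scaling to the least enriched 0.25 of the genes gave 30 higher and 0 lower, with a median of 0.22 and a background of 62.5% and 0%.

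Zinc finger genes again had the highest folds. Of 15 measured, 8 were higher and 1 was lower (background 31.2% and 33.6%), and the higher count ranged between 6 and 10 without any single library. ztf-18 had 375, 314 and 344 CPM in the IPs, against 217, 208 and 212 CPM in the inputs, a log2 fold of 0.70 ± 0.08 (SE, edgeR adjusted p = 1.33e-05). ztf-9 had 271, 217 and 239 CPM in the IPs, against 164, 178 and 160.3 CPM in the inputs, a log2 fold of 0.53 ± 0.07 (SE, edgeR adjusted p = 5.97e-05). All IPs of both genes lay above all inputs. ztf-15, listed for H4K8ac alone and next to bub-1, a spindle checkpoint kinase gene, had 304, 278 and 293 CPM in the IPs, against 226, 223 and 213 CPM in the inputs, a log2 fold of 0.40 ± 0.07 (SE, edgeR adjusted p = 0.000254). zfp-1, the ortholog of human AF10, had 212, 173 and 192 CPM in the IPs, against 158, 156 and 155 CPM in the inputs, a log2 fold of 0.30 ± 0.07 (SE, edgeR adjusted p = 0.00173); its region begins 801 bp from that of ztf-1, which passed in neither direction (0.15 ± 0.07). zfp-2 had a log2 fold of 0.28 ± 0.06 (SE, edgeR adjusted p = 0.00155). The other higher genes were ztf-17 (0.28 ± 0.06), ztf-4 (0.23 ± 0.07) and ztf-28 (0.13 ± 0.05). The ztf-4 call was lost without the third IP, the first input or the third input (edgeR adjusted p up to 0.0898), and the ztf-28 call without the third IP or any 1 input (up to 0.155). The lower gene was ztf-20 (-0.17 ± 0.05), a call lost without the third IP or the third input (edgeR adjusted p up to 0.0712).

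Among the leucine zipper genes, zip-11 had 288, 265 and 280.4 CPM in the IPs, against 213, 206 and 216 CPM in the inputs, a log2 fold of 0.39 ± 0.06 (SE, edgeR adjusted p = 0.000165). All IPs lay above all inputs. zip-1 was higher too (0.24 ± 0.05), and zip-3 passed in neither direction (-0.03 ± 0.06). ets-4, an ETS factor linked to lifespan, had 117, 95.4 and 111 CPM in the IPs, against 86.8, 85.9 and 87.3 CPM in the inputs, a log2 fold of 0.31 ± 0.07 (SE, edgeR adjusted p = 0.0016), with all IPs above all inputs. dmd-7 had a log2 fold of 0.29 ± 0.05 (SE, edgeR adjusted p = 0.000475), while dmd-8 was lower (-0.18 ± 0.06), a call lost without the third IP or the third input (edgeR adjusted p up to 0.0894). The second IP was the lowest of the 3 in 12 of the 14 higher genes and the highest in 11 of the 13 lower genes. fkh-9 was higher (0.18 ± 0.07), but the call was lost without the first IP (edgeR adjusted p = 0.0927, fold 0.11), the third IP or the second or the third input. Its fold without the second IP was 0.28.

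Of 9 homeobox genes, 4 were lower for H4K8ac and none was higher (background 33.6% lower and 31.2% higher). Their median was -0.15, which became 0.11 under scaling to the least enriched 0.25 of the genes. ceh-74 had 151, 159 and 139.5 CPM in the IPs, against 186, 190.4 and 187 CPM in the inputs, a log2 fold of -0.33 ± 0.06 (SE, edgeR adjusted p = 0.000301). ceh-12, the HB9 ortholog that sets motor neuron fate, had 82.7, 102 and 89.5 CPM in the IPs, against 109.6, 115 and 112 CPM in the inputs, a log2 fold of -0.30 ± 0.07 (SE, edgeR adjusted p = 0.00257). All IPs of both genes lay below all inputs. ceh-45 was the highest of the homeobox genes and passed in neither direction (0.06 ± 0.07). ceh-24, of the NK-2 class, had a log2 fold of -0.29 ± 0.07 (SE, edgeR adjusted p = 0.00396). ceh-17, of the Phox2 class, had a log2 fold of -0.24 ± 0.07 (SE, edgeR adjusted p = 0.00641), a call lost without the third IP (edgeR adjusted p = 0.0584). sox-4 was low again, with 164, 181 and 189.6 CPM in the IPs, against 223, 224 and 211 CPM in the inputs, a log2 fold of -0.30 ± 0.06 (SE, edgeR adjusted p = 0.00084). Both called T-box genes were lower, tbx-2 (-0.25 ± 0.06) and tbx-11 (-0.23 ± 0.07), with an edgeR adjusted p for tbx-11 of 0.0508 without the third IP. Of 5 bHLH genes 3 were lower relative to the typical listed gene (background 33.6%): hlh-34 (-0.23 ± 0.07, and -0.15 without the first IP), hlh-12 (-0.15 ± 0.06) and hlh-2 (-0.15 ± 0.06). Scaling to the least enriched 0.25 of the genes called no gene of the whole table lower (background 0%). The hlh-12 call was lost without the first IP, the third IP, the second input or the third input (edgeR adjusted p up to 0.160), and the hlh-2 call without the first IP, the third IP, the first input or the third input (up to 0.209; fold -0.097 without the first IP). egrh-1, a zinc finger factor of the somatic gonad in oocyte maturation, was lower (-0.20 ± 0.05). egrh-2 (0.16 ± 0.06) was higher, a call lost without any 1 of 5 libraries (edgeR adjusted p up to 0.143), the exception being the second IP, without which its fold was 0.24. elt-1 (-0.07 ± 0.06), hlh-30 (0.0070 ± 0.05), hlh-11 (0.16 ± 0.07), tbx-34 (0.06 ± 0.06) and klf-1 (-0.05 ± 0.06) passed in neither direction.

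Between the marks, none of the 35 genes in both tables differed in fold by edgeR at an adjusted p under 0.05 (0 of 35; background 0%, since 0 of 3750 genes were called). By unadjusted p under 0.05, 7 of 35 (20.0%) differed, against 14.6% of all 3750 genes, and DESeq2 called 1 of the 35 genes, against 1.09% of all 3750 (0.72% higher and 0.373% lower). Of the 35 genes, 9 were higher in both marks (25.7%, background 29.5%), 3 were lower in both (8.57%, background 16.2%), 0 were called in opposite directions (background 0.213%) and 10 were called in neither (28.6%, background 26.5%). Called for H4K5ac alone were 4 higher and 4 lower genes (11.4% each, background 4.72% and 8.24%), and for H4K8ac alone 2 higher and 3 lower (5.71% and 8.57%, background 6.13% and 8.48%). The largest difference was that of zfp-3, with a log2 difference of H4K5ac minus H4K8ac of 0.55 ± 0.12 (95% interval 0.29 to 0.81, edgeR adjusted p = 0.144). Its H4K8ac levels were 234, 215 and 232 CPM in the IPs, against 212, 216 and 223 CPM in the inputs, which overlapped. For H4K5ac zfp-3 was listed with a start site at 1443395 and a region of 9.2 kb, and for H4K8ac with 1446576 and 3.4 kb. The stretch counted is not stated, so it may not be the same for both marks. DESeq2 called zfp-3 (0.56, adjusted p = 0.00851), as did edgeR without the first H4K5ac IP (0.44, 0.0492) or without the third (0.66, 0.00796). Without the first, 0.08% of all 3750 genes were called higher and 0.107% lower, and without the third 3.97% and 1.17%. The transcript named ceh-44 (RefSeq symbol cone-1) had a difference of 0.35 ± 0.11 (95% interval 0.13 to 0.57, edgeR adjusted p = 0.215), called without the third H4K5ac IP (0.43, 0.0174). ztf-28 had -0.30 ± 0.10 (95% interval -0.50 to -0.10, edgeR adjusted p = 0.231), called without the first H4K5ac IP (-0.39, 0.0492).

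A small difference with an interval of this width does not show that the marks acted alike. ztf-9 had a difference of 0.07 ± 0.10 (95% interval -0.15 to 0.28) and sox-4 of -0.08 ± 0.12 (95% interval -0.32 to 0.16). Across genes, the folds of the marks followed each other (Spearman 0.81 over the 35 genes and 0.87 over all 3750), as a description of genes measured on the same kind of chromatin.

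**Figure D3:**
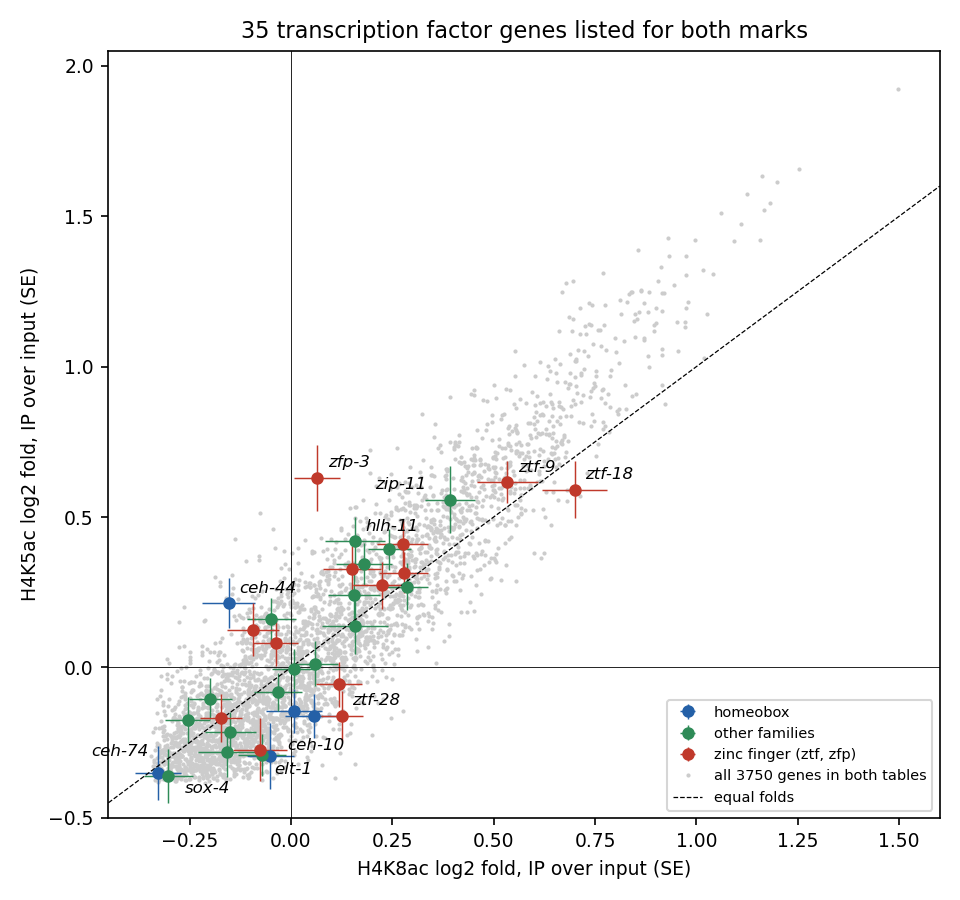
Log2 fold for H4K5ac against that for H4K8ac, with standard errors, in the 35 transcription factor genes (colours) and in all 3750 genes of both tables (grey); the dashed line marks equal folds. zfp-3 lies farthest above the line, with 0.63 for H4K5ac and 0.06 for H4K8ac.

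The regions of these genes covered a wide span. The 44 genes held 50 H4K5ac regions and the 46 genes 54 H4K8ac regions, the longest of 40.2 and 40.6 kb, both at ztf-18, and the median lengths were 4799 and 4199 bp, against 3799 and 4199 bp in the whole tables. Of the 50 H4K5ac regions 14 lay at a promoter and 8 between genes, where the shares of the whole table were 36.6% and 9.06%. The nearest region centre lay over 2 kb from the start site in 7 genes for H4K5ac and 8 for H4K8ac. In both marks these included ceh-10, ceh-44, tbx-2, tbx-8, tbx-34 and zip-11, with tbx-34 the farthest (9344 and 8544 bp). Such a signal may not belong to the named gene. Among all listed genes, 718 and 801 had so distant a region. The longest region of a gene had a median of 2299 bp for H4K5ac and 2599 bp for H4K8ac in homeobox genes, and 5999 and 7799 bp in zinc finger genes. The fold followed the length of the longest region (Spearman 0.69 for H4K5ac over 44 genes and 0.63 for H4K8ac over 46, against 0.59 and 0.55 over all genes), given as a description across genes. Among genes with a region of 10 kb or more, 9 of 13 were higher and 0 were lower for H4K5ac, where 70.3% of all such genes were higher and 4.63% lower. For H4K8ac 5 of 13 were higher and 1 was lower, where 66.3% of all such genes were higher and 8.03% lower. Among the long regions, that of hlh-30 had a low fold: its H4K5ac region spanned 34.2 kb at a log2 fold of -0.0049.

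**Figure D4:**
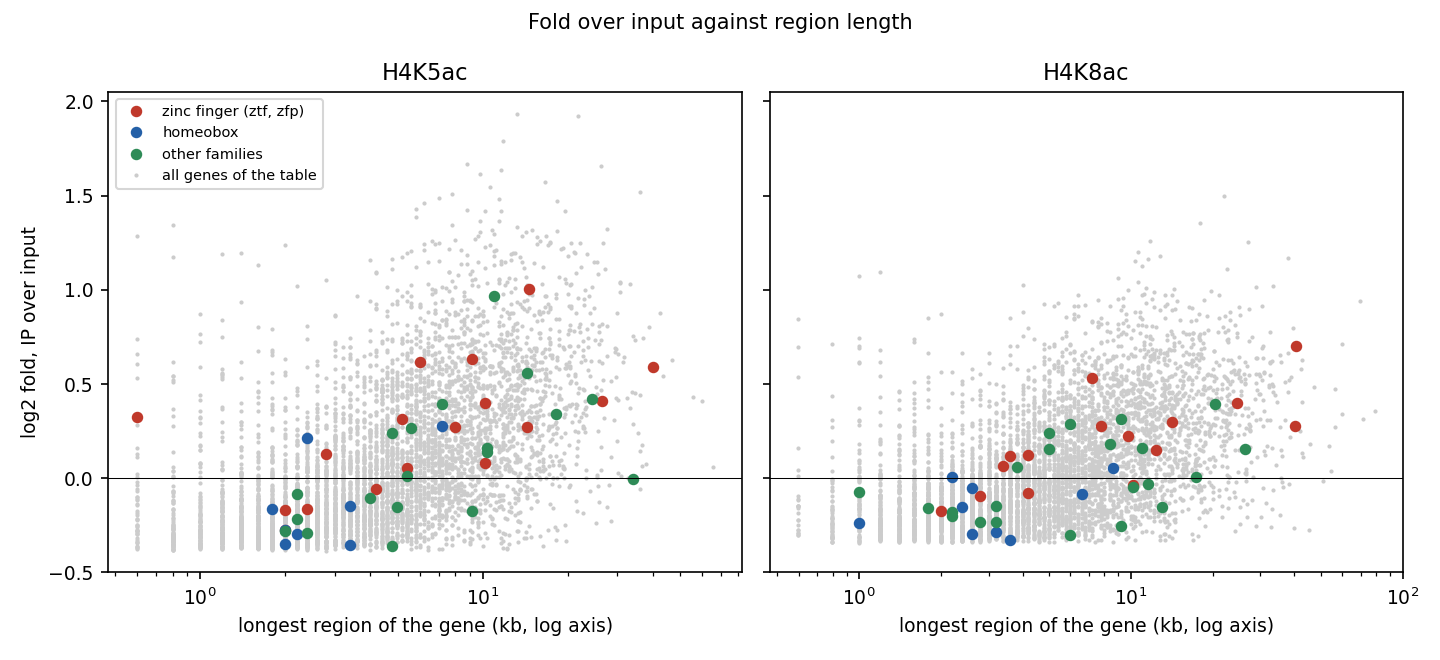
Log2 fold of IP over input against the length of the longest region of each gene (log axis, kb) for H4K5ac (left) and H4K8ac (right), with all genes of each table in grey. Zinc finger genes with regions over 10 kb lie mostly above 0, and no homeobox gene has a region of 10 kb or more.

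The list of 96 other transcription factors, which carry other names, gave 29 measured genes for H4K5ac, of which 10 were higher and 8 lower (edgeR). The background was 32.2% higher and 29.5% lower. For H4K8ac it gave 33, with 12 higher and 7 lower (background 31.2% and 33.6%). The highest for H4K5ac were cebp-1 (0.94 ± 0.13), a bZIP factor, hif-1 (0.57 ± 0.09), the hypoxia factor, and lsy-2 (0.50 ± 0.10), and the lowest were unc-130 (-0.35 ± 0.07), ces-2 (-0.35 ± 0.08) and php-3 (-0.33 ± 0.06), a posterior Hox gene. For H4K8ac the highest were mxl-2 (0.91 ± 0.11), cebp-1 (0.50 ± 0.08) and tra-1 (0.36 ± 0.08), the sex determination factor, and the lowest were eyg-1 (-0.27 ± 0.06), sbp-1 (-0.26 ± 0.06), the SREBP ortholog, and ces-2 (-0.26 ± 0.07). Scaling to the least enriched 0.25 of the genes called no gene of either table lower (background 0%). Under it the folds of the named lower genes lay between -0.060 and -0.037 for H4K5ac and between -0.013 and -0.0028 for H4K8ac. Of the other homeobox genes, 1 was higher and 3 were lower of 7 for H4K5ac (median 0.05), and 2 and 2 of 9 for H4K8ac (-0.02). Of the other zinc finger genes, 3 were higher and 1 was lower of 7 (median -0.07), and 3 and 1 of 8 (-0.02). Of the other bZIP genes, 2 were higher and 1 was lower of 6 for each mark (medians -0.05 and 0.01). The medians of the homeobox, zinc finger and leucine zipper genes taken by name thus did not recur in these lists for H4K5ac. Nor did those for H4K8ac, which were -0.15 for homeobox, 0.15 for zinc finger and 0.24 for zip genes taken by name. Of the other bHLH genes, 2 were higher and 1 was lower of 3 for H4K5ac (median 0.36), and 3 and 2 of 5 for H4K8ac (0.29). The medians of the bHLH genes taken by name were -0.0049 and -0.15.

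Many family genes lay under a region without being its named gene. Of 196 annotated protein-coding genes of these families, 99 were overlapped by an H4K5ac region (50.5%, against 53.3% of 19983 protein-coding genes) and 113 by an H4K8ac region (57.7%, against 58.1%), and 42 and 44 were matched as the named gene of a region. The transcripts named ceh-44 and ztf-4, which carry other RefSeq symbols, are not in the counts of 42 and 44. Of the ztf genes 22 of 24 were overlapped for each mark, and of the homeobox genes 24 and 28 of 64, with no test made between families. Of the bHLH genes 7 and 12 of 25 were overlapped, of the T-box genes 7 and 7 of 19, and of the ETS genes 2 and 2 of 7. elt-2, the main intestinal GATA factor, and elt-7 lay under no listed region, while hlh-1, the MyoD ortholog, atf-7, sox-2, klf-3 and zip-2 lay under regions of both marks as the named gene of none. On the X chromosome 27.5% of family genes were overlapped for H4K5ac, against 38.7% of all its protein-coding genes, and 29.4% against 36.5% for H4K8ac. A gene outside the listed regions is not shown to lack the mark.

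**Figure D5:**
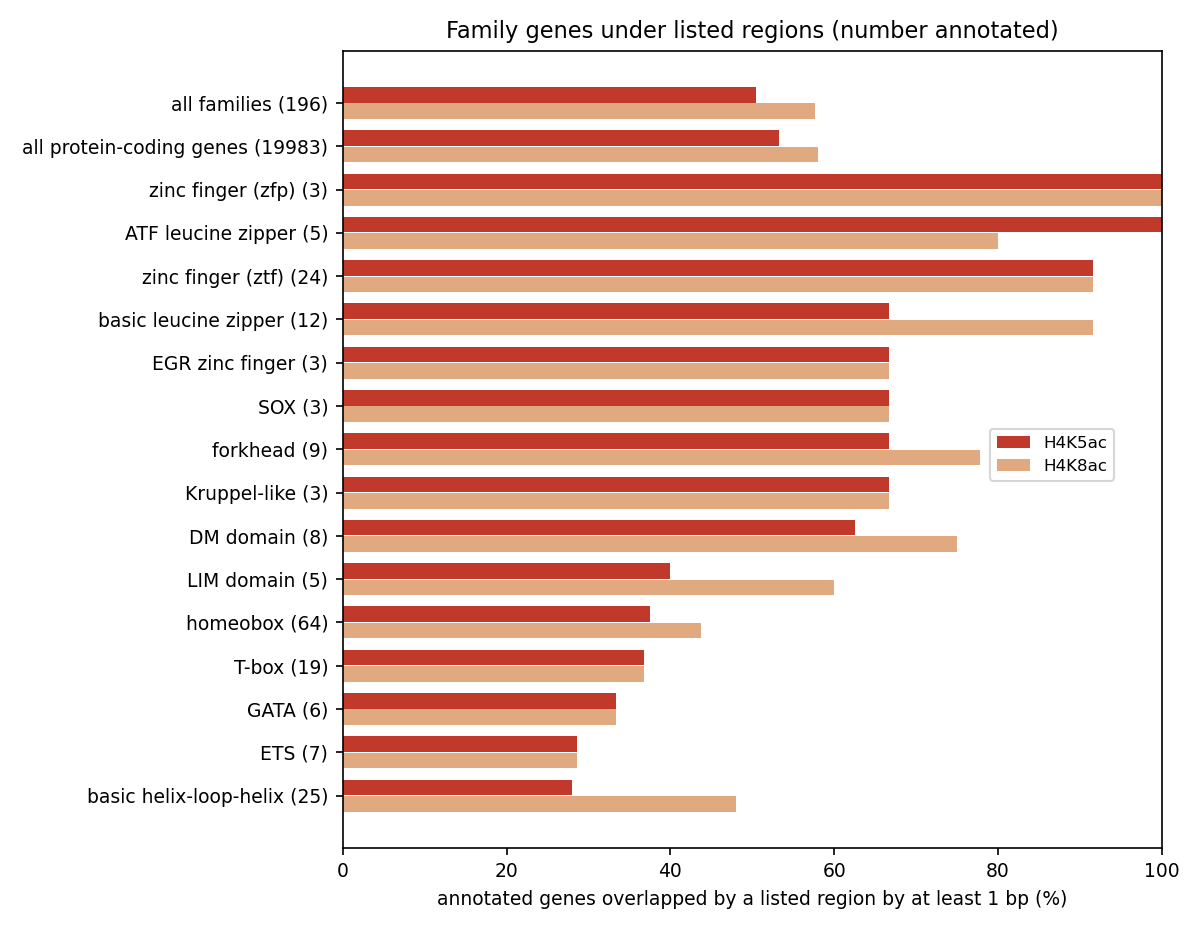
Share of annotated genes of each family (number in brackets) overlapped by a listed H4K5ac or H4K8ac region by at least 1 bp, with all protein-coding genes for reference. The ztf family reaches 91.7% for both marks, and the homeobox family 37.5% and 43.8%.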

How the data were processed

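H4K5ac and H4K8ac were profiled by ChIP-seq in whole adult N2 worms, with 3 IP and 3 input libraries per mark. The authors deposited 1 estimated count per gene and library, repeated on each region of the gene, which is not normalized; the unit was read from the values. MACS2 2.1.0, Bowtie 1.1.2, Trimmomatic 0.33 and bcl2fastq 2.17 appear in the submitters' processing notes, as do the builds hg38 and WBcel235, none with a role. The counting tool, and the pooling of samples for region calls, are not stated in what was used here. Coordinates are as the files list them, and names were matched to a RefSeq gene table of WBcel235.

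Expected counts were rounded and tested with edgeR 4.0.16 (R 4.3.3; quasi-likelihood test, TMM scaling, Benjamini-Hochberg over all genes of the table, threshold 0.05), each mark's table with its own 6 libraries. The difference of folds was fitted on all 12 libraries for the 3750 genes in both tables. The genes and lists were chosen with earlier results of these data known. Genes named were the 8 highest and 8 lowest called per mark, the extremes of families with 3 or more members, and listed well studied factors. The steps were tested on simulated data. H4K5ac IP and input libraries of the same number deviated together (correlations 0.278, 0.110 and 0.226), which passed the rule of every pair over 0.1. This pairing comes from the data alone. The main fit did not use it, and the replicate block, an alternative, did. Libraries of different numbers had correlations between -0.252 and 0.152, and the second IP correlated more with the third input (0.145) than with the second. Alternatives were other scalings, DESeq2 1.42.0, no filter, a replicate block, unrounded counts, a threshold of 0.01, a fit of all 12 libraries and leaving out each library.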

Additional observations from a re-analysis of the deposited data

How the results depend on the processing

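The number of transcription factor genes called stayed within 1.5 times for each mark under DESeq2, other scalings, unrounded counts, no filter and a replicate block (30 for H4K5ac, 28 for H4K8ac, 0 for the difference between marks). The block changed no H4K5ac call other than those of egrh-2, tbx-2 and ztf-28. For H4K8ac, same-numbered libraries did not deviate together (correlations -0.239, -0.101 and 0.066); the block ended the calls of egrh-2 (edgeR adjusted p = 0.0524) and ztf-28 (0.0898) and added ceh-44 (0.0359), elt-6 (0.0489) and tbx-8 (0.0326). A threshold of 0.01 left 17 genes called for H4K5ac, 13 higher and 4 lower (background 26.5% and 15.5%). The fit of all 12 libraries, which holds 35 of these genes, left 14 for H4K8ac, 8 higher and 6 lower (background 30.7% and 24%). Leaving out each library gave 21 to 30 genes for H4K5ac, 17 to 32 for H4K8ac and 0 to 2 for the difference. For H4K5ac the 21 came without the third input (background 28.1% higher and 20.3% lower) and the 30 without the first IP (32.8% and 31%). For H4K8ac the 17 came without the third IP (28.6% and 22.9%) and the 32 without the second IP (36.7% and 37.2%). For the difference, DESeq2 called 1 gene of 35 (background 1.09%). Without the first H4K5ac IP edgeR called 2 of 35 (background 0.08% higher and 0.107% lower). Without the third it called 2 of 35 (background 3.97% higher and 1.17% lower). Scaling to the least enriched 0.25 of the genes turned the sign of 15 H4K5ac and 19 H4K8ac genes, a shift that comes from setting those genes to 0. Of these, 7 (atf-6, ceh-45, ceh-51, egrh-1, tbx-2, ztf-20, ztf-28; 0.12 to 0.19) and 3 (ceh-44, tbx-8, ztf-3; 0.10 to 0.17) were called under neither scaling. The other H4K5ac log2 folds became ceh-58 0.021, elt-1 0.00199, hlh-2 0.079, hlh-30 0.29, tbx-8 0.012, zip-3 0.21, ztf-22 0.24, ztf-30 0.017. The other H4K8ac folds became ceh-10 0.21, ceh-17 0.020, ceh-53 0.18, dmd-8 0.077, egrh-1 0.061, elt-1 0.19, hlh-12 0.11, hlh-2 0.11, hlh-34 0.025, klf-1 0.21, tbx-11 0.023, tbx-2 0.00459, zip-3 0.23, ztf-20 0.088, ztf-30 0.18, ztf-6 0.22. Of the 18 higher and 9 lower H4K5ac genes, 13 and 5 were called without each library in turn, and of the 14 and 13 for H4K8ac, 10 and 7. The share of all genes kept in this way was not counted, so these counts have no background. Of the list of other factors, 11 of 29 were called for H4K5ac at a threshold of 0.01 (background 26.5% higher and 15.5% lower). With an overlap of 0.5 of the gene length, 78 and 90 annotated genes lay under regions, against 99 and 113 at 1 bp. Close neighbours limit single genes, and intervals cover the spread between libraries only.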

Other observations

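By chromosome, 14 of the 44 transcription factor genes listed for H4K5ac lay on chromosome III (31.8%, against 17.3% of the table), of which 7 were higher and 4 lower by edgeR, where 38.2% of all listed genes there were higher and 21.5% lower. On the X chromosome 4 of 7 were higher and 1 was lower, where 17.6% of all listed X-linked genes were higher and 41.1% lower. For H4K8ac, 5 of the 9 genes on chromosome V were lower and 3 higher, where 38.2% of all listed genes there were lower and 29.4% higher.

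A short list gave the tissue in which a factor is best known. It was chosen by hand and is not complete: ceh-12, listed for H4K8ac, is not in it. Of its 15 neuronal family genes, 4 were overlapped by an H4K5ac region and 5 by an H4K8ac region, where 53.3% and 58.1% of all protein-coding genes were. These counts depend on the genes chosen and do not give the share of neuronal factors as a whole. The other tissues had 2 or 3 genes each. For each mark, 0 of 3 intestinal, 2 of 3 epidermal, 2 of 3 pharyngeal, 1 of 2 muscle and 2 of 2 gonadal genes were overlapped, and no test was made between tissues.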
